A study of Saccharomyces cerevisiae and Saccharomyces paradoxus and Saccharomyces mikatae with 10 samples.

Results

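The genes described here are the 300 genes of chromosomes I and XI in a table of 4325 yeast genes, and the question was how their mRNA levels in the Saccharomyces cerevisiae strain DBVPG6040 compared with a copy number of 3 in place of 2. They were chosen by name alone: a systematic name that begins YA places a gene on chromosome I (48 genes) and one that begins YK places it on chromosome XI (252 genes). The whole chromosomes were picked because earlier results of these data had shown both to be high in DBVPG6040, so the DBVPG6040 difference is given throughout as a description, with no test. A value in all 6 S. cerevisiae strains was listed for 299 of the 300 genes. The exception was PRY2 on chromosome XI, for which DBVPG6040 had no value. Copy number itself was not measured: the data are RNA values only, and a larger share of cells with extra copies and more RNA per cell cannot be told apart in a culture.

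Polyadenylated RNA was sequenced from 9 strains of 3 species. The 6 S. cerevisiae strains were DBVPG6040 (labelled fruit juice), YPS606 and DBVPG1788 (both wild), Y9 (distillery), BC187 (wine) and YJM145 (clinical). The wild relatives were N17 and N44, both S. paradoxus, and the S. mikatae strain IFO1815. The labels name no genetic alteration, and every strain was grown in the same medium with sucrose, fructose and glucose at 30 °C. Each strain had 1 value per gene, so DBVPG6040 is a single library with no replicate check, and the 2 libraries of YPS606 were joined by the authors into 1 column. The spread given below is therefore the spread between strains. The values are treated as FPKM, fragments scaled by gene length and library total. In DBVPG6040 they correspond to a median of 4279.6 reads per chromosome I or XI gene, and 4 of these genes had fewer than 100.

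A chromosome carried in extra copies is called aneuploid, and budding yeast tolerates such chromosomes better than animals do. The mRNA of most genes follows the number of copies, because each copy is transcribed on its own. Genes held by feedback, by a shared regulator or by the growth state of the cell can depart from that proportion, and subunits made in excess of their complex are often degraded as proteins, a step that RNA values cannot show.

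For each gene the difference was log2(value + 1) in DBVPG6040 minus the mean log2(value + 1) of the 5 other S. cerevisiae strains. A ratio of 3 to 2 is 0.58 on this scale. The median difference of the 48 chromosome I genes was 0.79 (interquartile range 0.54 to 0.94), which is 1.72-fold. That of the 251 chromosome XI genes with a value was 0.74 (0.47 to 0.92), or 1.67-fold. The medians of the other 14 chromosomes ran from 0.087 on chromosome VII to 0.18 on chromosome XIII. The 4016 genes of those chromosomes had a pooled median of 0.15, so DBVPG6040 stood slightly above the other strains on this scale across the genome. Set against that pooled median, chromosome I was at 0.63 (1.55-fold) and chromosome XI at 0.59 (1.5-fold). Chromosomes I and XI held 10.2% of the summed values in DBVPG6040 and between 7.12% and 8.16% in each of the other 5 S. cerevisiae strains.

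**Figure D1:**
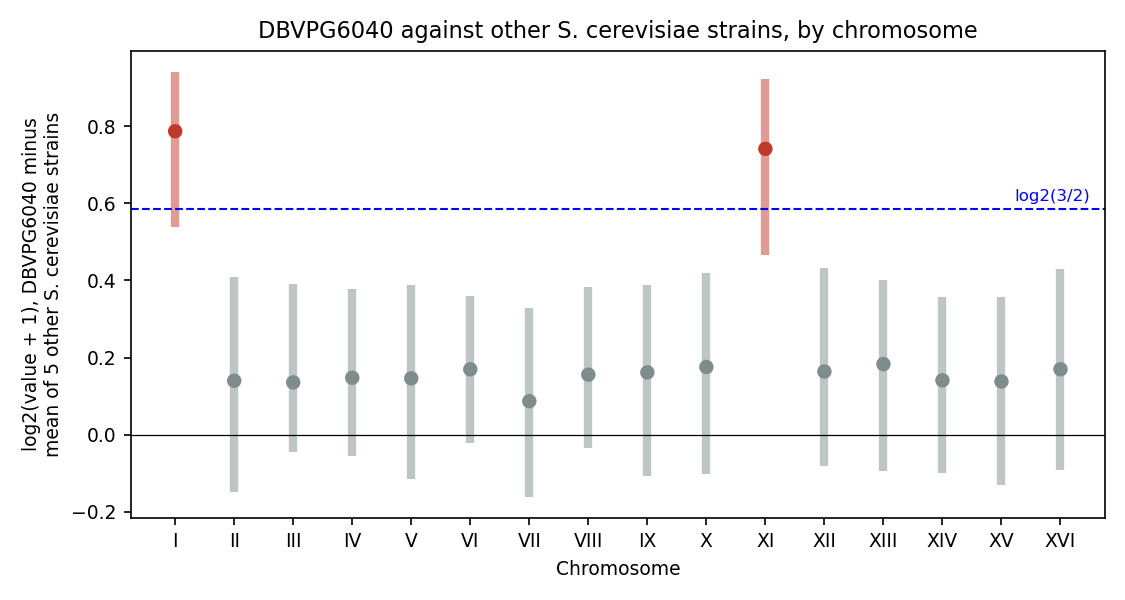
Median difference per chromosome (points) with the interquartile range over its genes (bars), as log2(value + 1) in DBVPG6040 minus the mean of the 5 other S. cerevisiae strains; the dashed line is the log2 of 3 to 2. Chromosomes I (0.79) and XI (0.74) lie above the line, and the other 14 lie between 0.087 and 0.18.

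The elevation was spread along both chromosomes. On chromosome I the 39 genes of the left arm had a median difference of 0.76 and the 9 of the right arm 0.94. On chromosome XI the 164 genes left of the centromere had a median of 0.74 and the 84 to the right 0.72, and the medians of its 100-kb stretches lay between 0.62 and 0.78. No long stretch was missing from it: the longest run of neighbouring listed genes under the lower limit described below, after centring, was 3 genes on chromosome XI (SPE1, LOT5 and FAS1) and 1 on chromosome I. The table listed 48 of the 94 protein-coding genes of chromosome I in the R64 annotation and 252 of the 318 of chromosome XI. None of the 14 genes fixed for the subtelomeric families of these chromosomes was in the table, so the chromosome ends were not examined.

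**Figure D2:**
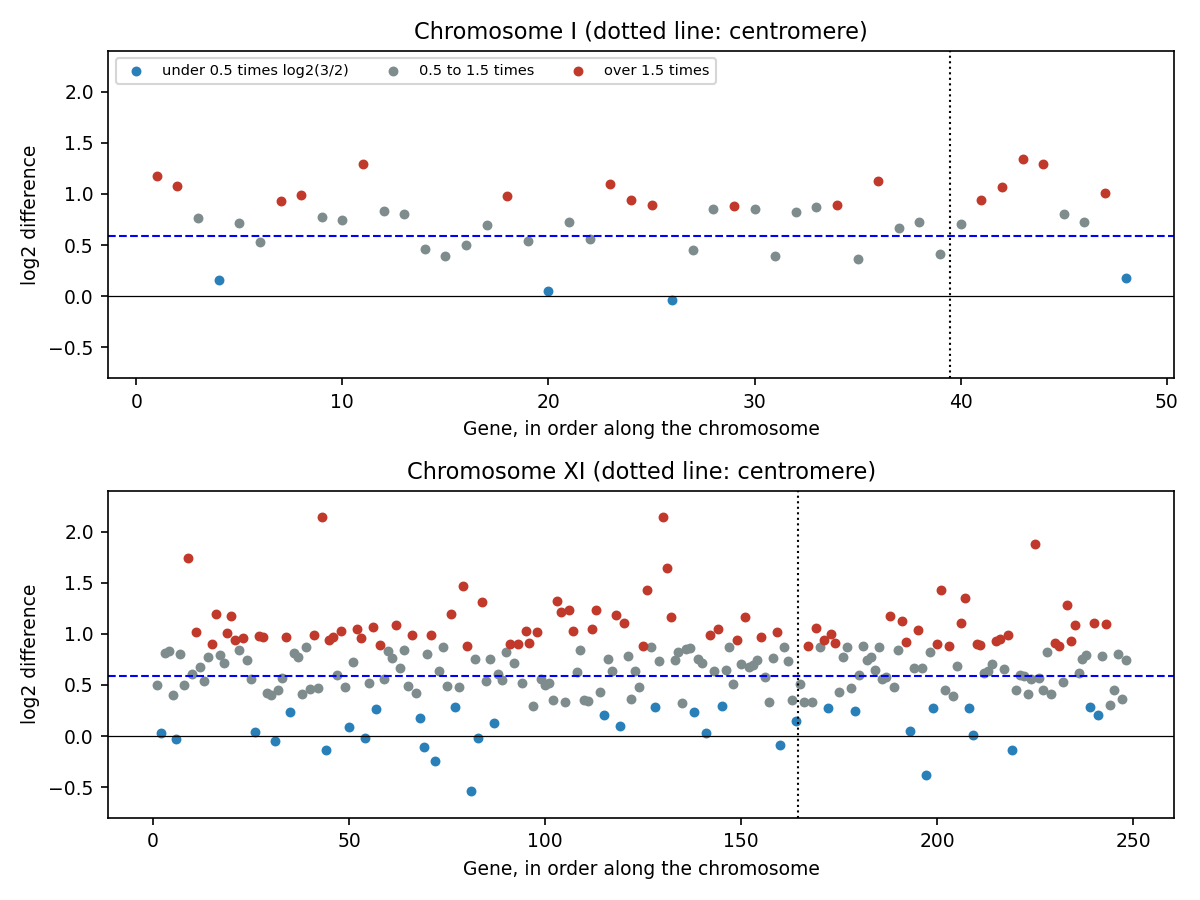
Difference of each listed gene (log2 scale, as deposited) in its order along chromosomes I and XI, coloured by its class against the 3 to 2 reference; the dashed line is 0.58 and the dotted line the centromere. Genes near and over the reference lie along both chromosomes, and the longest run of genes under it after centring is 3.

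Genes were sorted into 3 classes: under (a difference below 0.5 times 0.58, that is under 0.29), near (from 0.29 to 0.88) and over (above 1.5 times 0.58, that is over 0.88). As deposited, 38 of 299 genes were under, beside 61.8% of all 4315 genes, 165 were near, beside 32.4% of all genes, and 96 were over, beside 5.82% of all genes. After subtraction of the 0.15 at which the other 14 chromosomes stood, 65 were under (75.5% of all genes), 190 near (21.7%) and 44 over (2.87%). The centring thus moved the over class most, from 32.1% to 14.7% of the genes. The limits cut a continuous range. SRL3 at 0.286 and MAK11 at 0.292 lay just below the lower limit, and MDH1 at 0.296 and PCK1 at 0.31 just above it. MEH1 at 0.875 and VPS51 at 0.877 lay just below the upper limit, and CSE4 and SYN8, both at 0.878, just above it. In DBVPG6040, 243 of the 299 genes stood above all 5 other strains, beside 36.7% of all genes, and 0 stood below all 5, beside 10.5% of all genes. The remaining 56 genes fell inside the range of the other strains.

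Below, the values of the 5 other S. cerevisiae strains are listed in the order YPS606, DBVPG1788, Y9, BC187 and YJM145. The 5 genes with the lowest and the 5 with the highest difference on each chromosome are described first, among the 258 genes with a mean of at least 10 over those strains.

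The lowest differences on chromosome XI were below 0 and included an amino acid permease and genes of metabolite transport and synthesis. GAP1, the general amino acid permease, had a value of 8.03 in DBVPG6040 against 10.9, 10.8, 21.4, 7.57 and 7.34, a difference of −0.38. OAC1, which carries oxaloacetate across the inner mitochondrial membrane, had 62.7 against 49.5, 70.5, 128, 90.03 and 57.7 (−0.25). MET1, an enzyme that makes the siroheme needed for sulfite reduction, had 10 against 8.35, 14.4, 15.4, 9.60 and 9.39 (−0.14). In all of these DBVPG6040 lay inside the range of the other strains, and Y9 held the highest value. Without Y9 the differences were −0.15 for GAP1, −0.056 for OAC1 and −0.029 for MET1, and without DBVPG1788 that of MET1 was −0.051. PIR3, a cell wall glycoprotein, was at 107 against 154, 83.6, 89.7, 132 and 147 (−0.14), and its difference was −0.040 without YPS606 and −0.056 without YJM145. RRN3, the factor that brings RNA polymerase I to the ribosomal DNA, was at 19.6 against 19.1, 25.2, 23.3, 19.7 and 19.05 (−0.10). RRN3 varied little among the strains, with an SD of 0.18 on the log2 scale, whereas GAP1 (0.57) and OAC1 (0.53) varied by about as much as the reference itself. The difference of RRN3 was −0.043 without DBVPG1788.

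On chromosome I the low end was less extreme. FRT2, a protein of the endoplasmic reticulum membrane, was at 20.9 against 24.5, 12.9, 25.7, 21.1 and 19.3 (0.052). FLC2, which takes part in calcium and flavin handling, was at 146 against 147, 117, 139.5, 131 and 123 (0.16). Both lay inside the range of the other strains, and FRT2 changed sign without DBVPG1788 (−0.10), after centring (−0.10) and under quantile normalisation (−0.19). FUN14, a mitochondrial outer membrane protein, was at 43.6 against 31.7, 29.6, 37.2, 37.5 and 32.7 (0.37). CYS3, which makes cysteine from cystathionine, was at 682 against 525.8, 502, 556, 579 and 444 (0.39). FUN12, the translation initiation factor that joins the ribosomal subunits, was at 192 against 143, 159, 136, 131 and 163 (0.40). In these last 3 DBVPG6040 was above every other strain but its difference after centring (0.21, 0.24 and 0.24) was under the lower limit.

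At the other end, several chromosome XI genes stood far over a 3 to 2 ratio. MCD4, an enzyme of the endoplasmic reticulum that adds ethanolamine phosphate to the glycosylphosphatidylinositol (GPI) anchor, was at 230.2 in DBVPG6040 against 58.9, 49.3, 43.7, 81.5 and 34.6, a difference of 2.14 or 4.41-fold. MMO1, a short gene, was at 97.8 against 21.9, 17.8, 22.4, 16.3 and 30.9 (2.15). Directly downstream of it on the same strand (MMO1 at chrXI:356322-356642 and PHD1 at chrXI:356748-357848, both plus strand in R64) lies PHD1, a transcription factor of filamentous growth, at 243 against 71.7, 55.4, 69.7, 88.3 and 112 (1.64). In each of these 3 genes DBVPG6040 was above every other strain. PHD1 lay outside the rule for named genes and was added after its value was seen. MSA2, a regulator of transcription at the start of the cell cycle, was at 79.6 against 21.2, 25.3, 21.5, 17.1 and 20.7 (1.87). CBT1, which acts in the processing of mitochondrial cytochrome b mRNA, was at 57.8 against 15.2, 19.8, 14.8, 17.1 and 16.5 (1.74). MSA2 and CBT1 varied little among the other strains (SD 0.19 and 0.16), and in both DBVPG6040 was above every other strain. Both were picked for their high difference, so this spread is no test of it. YKR012C, which the R64 table does not hold, was at 109.8 against 51.7, 30.4, 19.5, 16.9 and 48.9 (1.82) and was the most variable of the group (SD 0.71). Without a place in that annotation, its overlap with neighbouring genes was not examined, so its values may include reads of another gene.

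The high end of chromosome I held genes of replication, cell cycle entry and RNA processing. RFA1, the large subunit of the single-stranded DNA binding protein RPA, was at 89.5 against 35.6, 35.98, 35.3, 43.5 and 25.2 (1.35). SEN34, a subunit of the tRNA splicing endonuclease, was at 29.96 against 8.78, 16.4, 11.1, 10.9 and 12.4 (1.29). RFA1 (chrI:156754-158619, minus strand) and SEN34 (chrI:158966-159793, plus strand) are divergent neighbours in R64. CLN3, the cyclin that starts the cell cycle in response to growth, was at 316 against 126, 116, 124, 117 and 167 (1.29). GDH3, a glutamate dehydrogenase, was at 26.2 against 12.3, 12.1, 10.5, 8.78 and 12.1 (1.17). ERP2, a p24 protein of vesicles that leave the endoplasmic reticulum, was at 339 against 154, 157, 139, 192 and 136 (1.13). In each of these 5 genes the DBVPG6040 value was above all other strains.

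Ordered by function, the cell cycle and DNA replication list stood highest and the lists of central carbon, glucose-repressed and nutrient transport genes lowest. Counts in this and the next paragraphs are classes as deposited, unless centring is named, and each list was chosen with earlier results known. For comparison, 12.7% of all 299 genes were under, 55.2% near and 32.1% over as deposited. After centring these shares were 21.7%, 63.5% and 14.7%. Of the 299 genes 81.3% stood above all 5 other strains. Of the 9 measured cell cycle and replication genes 0 were under, 2 near and 7 over, with a median difference of 1.29, and the counts were the same after centring. SLD2, which acts at the start of DNA replication when phosphorylated by the S-phase kinase, was at 20.8 against 8.84, 8.22, 4.92, 7.37 and 5.82 (1.46). ELM1, a kinase of bud neck signalling, was at 18.3 against 5.51, 7.41, 5.56, 5.73 and 6.82 (1.43). HSL1, a kinase that ties bud formation to mitosis, was at 63.2 against 25.9, 27.2, 18.1, 21.9 and 33.5 (1.31). All 3 were above the other strains without overlap. RAD27, the flap nuclease of Okazaki fragments, was at 42.1 against 15.2, 28.3, 11.9, 17.9 and 19.9 (1.19). CDC16, a subunit of the anaphase-promoting complex, had a difference of 1.05. PRI2, a primase subunit (0.73), and CDC24, the exchange factor that sets the bud site (0.74), were near the reference.

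Many genes transcribed at the G1 to S transition in S. cerevisiae carry the letters ACGCGT, the core bound by the MBF factor, upstream of their start codon. This motif reads the same on both strands. It was searched in the window from 300 to 101 bases before the start codon in RefSeq R64, and 4 of the 9 cell cycle and replication genes held it. Over all protein-coding genes of R64 with such a window 175 of 6001 (2.92%) held it, and 9 of 296 (3.04%) of the measured chromosome I and XI genes did. These 9 include genes outside the cell cycle and replication list, which are not shown. The windows of the 4 genes are shown, 5′ to 3′ on the strand of the gene, with each ACGCGT in capitals, because these genes are the ones in the highest list that share a sequence feature. RFA1 lies at chrI:158720-158919 (minus strand), RAD27 at chrXI:225976-226175 (minus strand), SLD2 at chrXI:234126-234325 (plus strand) and PRI2 at chrXI:353193-353392 (plus strand).
RFA1: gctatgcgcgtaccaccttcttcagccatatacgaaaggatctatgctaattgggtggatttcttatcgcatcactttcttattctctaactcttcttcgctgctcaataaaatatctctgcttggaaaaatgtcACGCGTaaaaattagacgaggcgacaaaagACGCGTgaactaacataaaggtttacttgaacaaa
RAD27: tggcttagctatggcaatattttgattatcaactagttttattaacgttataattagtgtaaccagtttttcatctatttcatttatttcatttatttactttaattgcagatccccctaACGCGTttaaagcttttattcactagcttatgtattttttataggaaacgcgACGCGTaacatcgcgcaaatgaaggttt
SLD2: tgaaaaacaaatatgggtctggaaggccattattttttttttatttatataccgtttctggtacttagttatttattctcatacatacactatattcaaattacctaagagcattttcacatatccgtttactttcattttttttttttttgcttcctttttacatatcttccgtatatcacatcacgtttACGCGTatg
PRI2: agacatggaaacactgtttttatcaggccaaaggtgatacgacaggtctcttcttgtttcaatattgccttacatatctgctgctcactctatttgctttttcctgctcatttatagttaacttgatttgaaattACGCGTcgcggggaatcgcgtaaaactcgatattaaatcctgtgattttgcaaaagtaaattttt
RFA1 and RAD27 held the motif 2 times each, and SLD2 and PRI2 held it 1 time. The differences of the 4 genes ran from 0.73 to 1.46, and those of the list's 5 genes without these letters in the window (CLN3, CDC24, CDC16, ELM1 and HSL1) from 0.74 to 1.43, so the ranges overlapped.

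Structural genes of division and of the nuclear envelope had list medians over the upper limit as deposited, and near the reference after centring. All 6 measured spindle pole body and kinetochore genes were over, with a median of 0.91 and a range of only 0.88 to 1.17, and after centring 4 were near and 2 over. SPC42, the central layer of the spindle pole body, was at 37.6 against 11.9, 18.02, 15.8, 15.9 and 20.6 (1.17). SPC72, which anchors cytoplasmic microtubules, was at 16.2 against 7.85, 7.86, 8.07, 7.72 and 8.76 (0.93). CSE4, the centromeric histone, had a difference of 0.88. Each of the 6 genes was above all 5 other strains, beside 81.3% of the 299 genes. Of the 6 nuclear pore and mRNA export genes 2 were near and 4 over (median 0.94), and after centring 5 were near and 1 over. NUP120, a subunit of the Y complex, was at 70.2 against 27.5, 27.5, 34.7, 33 and 29.2 (1.19), and its complex partner NUP133 had a difference of 0.91.

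Mitochondrial genes were mostly near or over the reference, as were most of the 299 genes. The 6 subunits of the mitochondrial ribosome had a median of 1.01, with 2 near and 4 over (4 near and 2 over after centring). All 6 stood above the other strains, beside 81.3% of the 299 genes. MRPL13 was at 202 against 100.3, 94.7, 96.5, 93.2 and 99.7 (1.05), with a spread among the other strains of only 0.045 (SD, log2), and MRPL20 at 273 against 109.9, 118, 97.6, 96.2 and 141 (1.28). Of the 10 mitochondrial energy genes 1 was under, 4 near and 5 over (median 0.89), which became 2, 6 and 2 after centring. ATP7, a stalk subunit of ATP synthase, was at 811 against 367, 391, 429.7, 285 and 348 (1.17). SDH3, a membrane anchor of succinate dehydrogenase, was at 423 against 226, 199, 257, 167 and 172 (1.07). ACP1, the mitochondrial acyl carrier protein, was at 1393 against 724, 813, 621, 797 and 685 (0.94). These 3 were above every other strain. MDH1, the malate dehydrogenase of the citric acid cycle, was at 523 against 486, 379.5, 509.5, 339.9 and 439 (0.30). HAP4, the regulatory subunit of the activator of respiratory genes, was at 423 against 332, 165, 369.6, 271 and 460.1 (0.48). MDH1 was only slightly above the highest other strain, and HAP4 was below YJM145.

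The list medians were 0.88 for vesicle traffic and 0.68 for the transcription machinery. Of 12 vesicle traffic genes 6 were near and 6 over as deposited, and after centring 2 were under, 8 near and 2 over. All 12 were above the other strains, beside 81.3% of the 299 genes. BCH2, which exports cargo from the Golgi, was at 34.03 against 14.1, 16.2, 13.8, 14.3 and 14.3 (1.18), and DID4, an ESCRT subunit, at 78.3 against 60.4, 68.4, 59.3, 70.3 and 49.1 (0.35). Of 10 genes of the transcription machinery 1 was under (RRN3), 5 near and 4 over, which became 2, 7 and 1 after centring. These shares were close to those of all 299 genes. TFA1 and TFA2, the subunits of TFIIE, had differences of 0.72 and 0.62, and TOA2, the small subunit of TFIIA, 0.64. These 3 lay close to the 3 to 2 value. Of 6 genes of chaperones and protein turnover 4 were near and 2 over (median 0.72), and after centring 1 was under, 4 near and 1 over. LHS1, a chaperone of the endoplasmic reticulum lumen, was at 124 against 69.5, 51.4, 43.7, 83.8 and 31.7 (1.21), and UBA1, the ubiquitin activating enzyme, had a difference of 0.80. Of the 3 measured mating genes, the a-factor exporter STE6 (0.50) and the farnesyltransferase subunit RAM2 (0.87) were near, and ASH1, a repressor of mating type switching, was over (0.97). The 4 cell wall genes had 2 under, 1 near and 1 over (median 0.55), from PIR3 to KTR2, a mannosyltransferase (0.89). After centring, 2 of these were near and 0 over, and all 3 mating genes were near.

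Genes of protein synthesis had list medians a little under the reference as deposited. After centring these medians were lower, at 0.39 for ribosome assembly and 0.36 for cytosolic translation. Of 12 ribosome assembly genes 2 were under, 8 near and 2 over (median 0.55), and after centring 5 were under, 6 near and 1 over. LTV1, an export factor of the small subunit, was at 31.4 against 22.2, 42.9, 30.4, 27.9 and 40.1 (−0.017). EBP2, an assembly factor of the large subunit, was at 79.5 against 35.5, 100.1, 45.5, 54.7 and 84.5 (0.41). In both, DBVPG6040 lay inside the range of the other strains. YPS606 had the lowest value of either gene and DBVPG1788 the highest. Of the 6 cytosolic translation genes 1 was under and 5 near (median 0.51), and after centring 2 were under and 4 near. EFB1, the exchange factor of elongation factor 1, was at 2790.5 against 1389, 2258, 1699.7, 1795 and 1757 (0.67), and TEF4, a subunit of the same factor, at 1362 against 917, 912, 1031, 718 and 1103 (0.55). Both overlap a small RNA gene on the same strand in R64, whose reads could not be told apart. TMA19, a ribosome-associated protein, was at 3123 against 2179.8, 3251, 3311, 2804 and 3166 (0.10). EFB1 and TEF4 were above all other strains, and TMA19 was not: YJM145, Y9 and DBVPG1788 were higher. The under class of TMA19 ended under quantile normalisation, where its difference was 0.83, and without YPS606 the difference was −0.0014.

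The lists with the lowest medians were metabolic. Of 9 genes of amino acid, sulfur and nucleotide synthesis 3 were under and 6 near (median 0.45), and after centring 4 were under and 5 near. URA1, dihydroorotate dehydrogenase, was at 197 against 199.6, 173, 215, 177 and 205 (0.028), and MET14, adenylylsulfate kinase, at 44.1 against 29.8, 46.9, 50.8, 63.4 and 21.96 (0.14). The purine enzyme ADE1 (0.73) and the activator of purine and histidine genes BAS1 (0.80) were near. Of 5 central carbon enzymes 3 were under, 1 near and 1 over (median 0.27), and after centring 4 were under and 1 over. FBA1, the aldolase of glycolysis and the highest of all 299 genes, was at 13548 against 14317, 10017, 10711, 13816 and 10414 (0.21). FBA1 was thus below YPS606 and BC187. BDH2, a putative butanediol dehydrogenase, was over at 37.9 against 15.8, 16.5, 9.40, 10.3 and 61.2 (1.08), but YJM145 was higher than DBVPG6040. Of the 7 glucose-repressed genes 3 were under, 3 near and 1 over (median 0.31), and of the 6 transport genes 3 were under and 3 near (median 0.31). After centring 4 genes of each of these 2 lists were under. PCK1, the first enzyme of gluconeogenesis, was at 3.56 against 3.39, 2.96, 2.93, 4.16 and 0.929, and JEN1, the lactate permease, at 10.4 against 3.88, 9.77, 11.6, 6.35 and 6.15. PTR2, the peptide permease, was at 121 against 168, 51.9, 108, 72.8 and 185 (0.20). These 3 fell inside the range of the other strains, which for PTR2 ran from 51.9 to 185. The iron importer of mitochondria MRS4 (0.39) and the glucose response repressor RGT1 (0.85) were near.

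**Figure D3:**
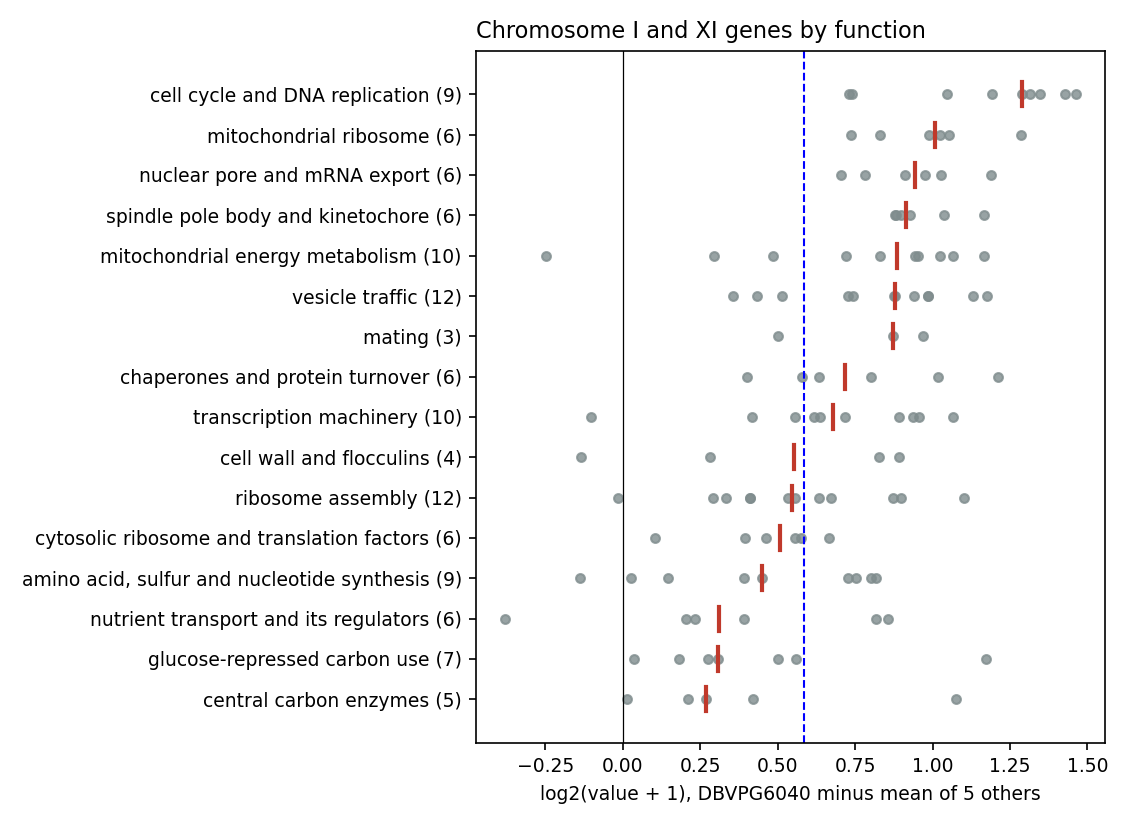
Difference of each measured gene (points, log2 scale as deposited) by functional list, with the list's median (bar) and the number of genes in brackets; the dashed line is 0.58. Medians run from 0.27 for central carbon enzymes to 1.29 for cell cycle and DNA replication genes.

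Some genes were read against the rest of their complex or pathway on the other 14 chromosomes. These groups were chosen after the values were seen, and no test was made of them. The 6 mitochondrial ribosome genes (median 1.01) stood 0.63 above the 50 measured on other chromosomes (0.37). The 4 nucleoporins of the NUP series (0.97) stood 0.76 above 13 others (0.21), and 5 vacuolar protein sorting genes (0.73) stood 0.56 above 27 others (0.16). The 2 RNA polymerase III subunits (0.76) stood 0.77 above 6 others (−0.0086). Of these groups, only the mitochondrial ribosome was itself above 0.15 elsewhere by more than 0.1.

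An offset also appeared where the median of the members elsewhere was below 0. FAS1, the beta subunit of fatty acid synthase, was at 458 against 486, 543, 459, 430.3 and 452 (−0.044), inside the range of the other strains. Its partner FAS2 on chromosome XVI was at 349 against 380 to 691 in the other strains (−0.50), so FAS1 lay 0.45 above it. VMA5, a subunit of the vacuolar proton pump, had a difference of 0.50, and 9 other subunits had a median of −0.32. FBA1 stood at 0.21, and 7 other glycolysis enzymes at −0.44.

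In other groups the median of the members elsewhere was also above 0.15. RFA1 (1.35) stood 0.45 above RFA2 and RFA3 (median 0.89). SDH3 (1.07) stood 0.47 above SDH2 and SDH4 (0.60). ATP7 (1.17) stood 0.68 above 10 other subunits (0.49). The 5 replication and cyclin genes (median 1.29) stood 0.82 above 34 others, which were themselves at 0.47, and the 4 spindle pole and kinetochore genes of the SPC and DAD series (0.98) stood 0.29 above 10 others (0.70). The 34 others ran from −0.027 to 1.33 and the 10 others from −0.10 to 0.96.

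Other genes lay close to the median of their pathway elsewhere, or far beyond it. MET1 and MET14 (median 0.0030) were 0.065 above 13 other methionine and sulfur genes (−0.062), which ran from −1.89 to 0.52. OAC1 (−0.25) was 0.0052 above 8 genes of leucine and isoleucine synthesis (−0.25), which ran from −1.12 to 0.021. With ranges this wide, a small distance from the median does not show that a gene followed its pathway. MCD4 (2.14) was 1.83 above 13 other genes of the GPI anchor (0.31, the highest 0.97). A looser base was the name: 61 genes share 1 of 37 three-letter prefixes with at least 5 genes elsewhere. A shared prefix is a shared name only, and a common function was not examined. For these 61 genes, subtraction of the prefix's median elsewhere gave a median of 0.58 (interquartile range 0.37 to 0.70), with 13 under, 40 near and 8 over. Subtraction of 0.15 gave the same 61 genes a median of 0.60 (0.38 to 0.76), with 7 under, 46 near and 8 over, so fewer of them were near the reference with the prefix as the base.

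**Figure D4:**
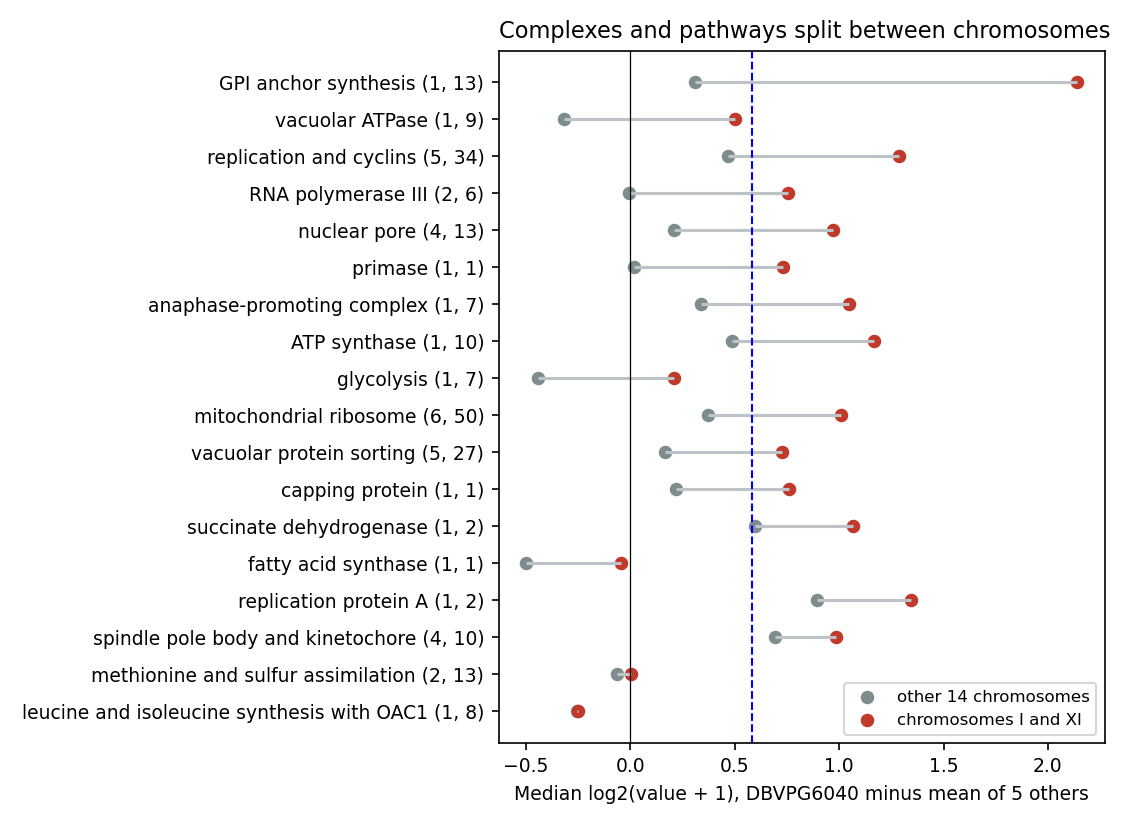
Median difference (log2 scale as deposited) of the chromosome I and XI members (red) and of the members on the other 14 chromosomes (grey) of each complex or pathway, with the numbers of genes in brackets; the dashed line is 0.58. Most pairs are separated by 0.45 to 0.82; leucine and isoleucine synthesis (0.0052) and GPI anchor synthesis (1.83) are the narrowest and the widest.

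Classes also differed in expression level, read in S. paradoxus, whose values the rule did not use. Genes under the reference after centring had a median value of 70.1 over N17 and N44, against 38.3 for near and 38.1 for over. On the other 14 chromosomes the same classes were at 45.5, 33.4 and 48.0. By level, the median difference was 0.71 for the 17 genes under 10, 0.81 for the 85 genes from 10 to 30, and 0.74 for the 130 genes from 30 to 100. It was 0.61 for the 49 genes from 100 to 300 and 0.65 for the 18 genes of 300 and over. On the other 14 chromosomes the corresponding medians were 0.10, 0.25, 0.14, 0.057 and −0.11, so the lowest median there was in the highest level bin, which on chromosomes I and XI was not the lowest, and the part of expression level in the classes was not tested. GC content (39.9%, 39.3% and 39.5% for under, near and over) and the difference between N17 and N44 (0.39, 0.36 and 0.37 in absolute log2) were close among classes. Median gene length was 1350, 1281 and 1149 bases.

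The same genes were then followed in the other strains. Each other S. cerevisiae strain was set against the mean of the 4 others without DBVPG6040, and these comparisons share strains. Relative to the other 14 chromosomes, the chromosome I median was 0.032 in YPS606, 0.017 in DBVPG1788, −0.15 in Y9, 0.012 in BC187 and 0.069 in YJM145. The chromosome XI median was −0.0027, 0.025, 0.0074, 0.021 and −0.014 in the same order. None of the 5 strains came near the values of DBVPG6040 (0.63 and 0.59), and in Y9 chromosome I was the lowest of these values. In N17 the chromosome I and XI medians against the 5 S. cerevisiae strains, as deposited, were both 0.34, and the other 14 chromosomes were at 0.37. In N44 they were 0.25 and 0.34, with 0.33 elsewhere. In IFO1815 they were 0.092 and 0.097, above the −0.13 of the other chromosomes, whose single medians ran from −0.94 to 0.079. In that strain 426 genes of the table were listed at 0, none of them on chromosomes I or XI, and 10.7% of its summed values came from these 2 chromosomes.

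**Figure D5:**
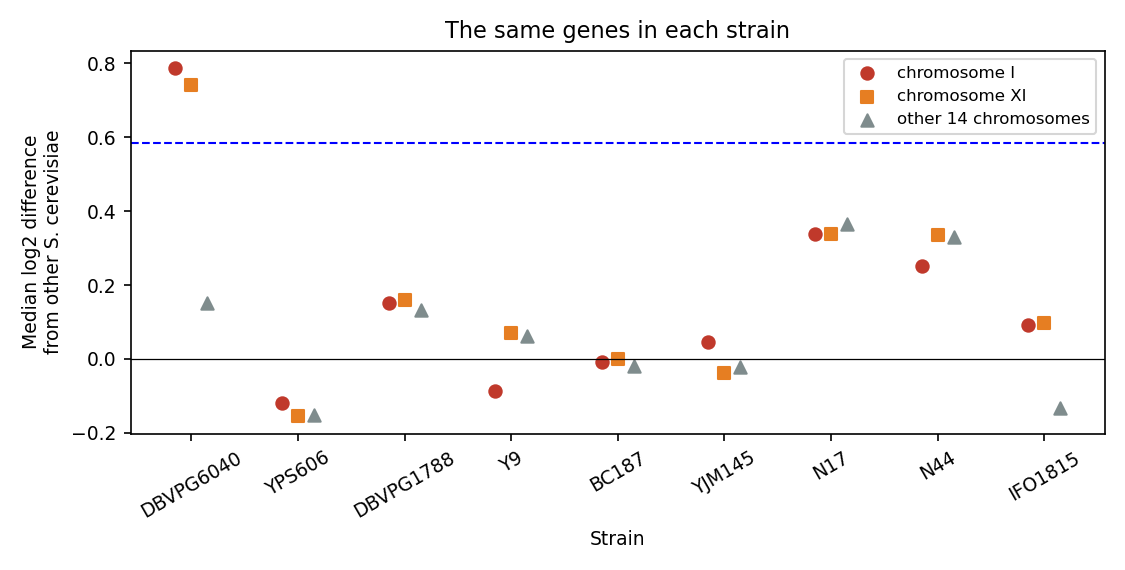
Median difference (log2 scale as deposited) of chromosome I, chromosome XI and other genes in each strain; S. cerevisiae strains are set against the other S. cerevisiae strains without DBVPG6040, and N17, N44 and IFO1815 against those 5. DBVPG6040 is the only S. cerevisiae strain in which both chromosomes (0.79 and 0.74) stand far from the other 14 (0.15).

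The last 2 comparisons left DBVPG6040 out, and a test was made in each. The chromosomes were picked as high in DBVPG6040 beside the 5 other S. cerevisiae strains. Both comparisons use these 5 strains, so they are not fully independent of that choice, and its bearing on the counts was not tested. In the first, the 5 other S. cerevisiae strains were set against N17, N44 and IFO1815 with limma on log2(value + 1), strains being the replicates. Of 298 chromosome I and XI genes 25 passed an adjusted p of 0.05 (Benjamini-Hochberg over 4241 genes), beside 7.29% of all genes. Of these 1 was higher in S. cerevisiae, beside 1.46% of all genes, and 24 were lower, beside 5.82%. The median difference was −0.25 for the 298 genes and −0.13 for all genes, but without IFO1815 these medians were −0.35 and −0.34, nearly level. Groups did not overlap for 77 of the 298 genes, beside 20.4% of all genes. The count rested on single strains: it was 0 without BC187, 2 without YJM145, 3 without Y9 or without N44, 4 without YPS606, 5 without N17, 8 without DBVPG1788 and 76 without IFO1815. It also depended on scaling, with 2 higher and 15 lower after quantile normalisation and 6 higher and 14 lower after each strain was centred on its median.

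PCK1 had the lowest log2 difference of the genes that passed, with 0.929 to 4.16 in the 5 strains and 24.9, 20.2 and 10.5 in N17, N44 and IFO1815 (log2 difference −2.32, limma adjusted p = 0.0180). STE6 was at 5.06 to 6.79 against 31.03, 18.3 and 15.7 (−1.60, limma adjusted p = 0.0155). SEN34 was at 8.78 to 16.4 against 26.3, 32.8 and 35.3 (−1.35, limma adjusted p = 0.0174). In all 3 genes the groups were separate. STE6 and SEN34 were not among the genes the naming rule gave here and were chosen after their values were seen. Also lower were YKR012C (−2.18), YKL107W (−2.03) and SRX1, the sulfiredoxin of oxidative stress defence (−2.02), with limma adjusted p of 0.0254, 0.0299 and 0.0422. SEN34 and YKR012C were also named above for high differences in DBVPG6040. Low values in these same 5 strains add to such a difference, so the p-values of these genes are not independent of that naming. YKR070W was the 1 gene that was higher, at 48.4 to 51.2 against 32.5, 32.5 and 27.6 (0.69, limma adjusted p = 0.0286).

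In the second comparison, the wild strains YPS606 and DBVPG1788 were set against Y9, BC187 and YJM145. By limma 0 of 298 chromosome I and XI genes passed the threshold, beside 0% of all 4269 genes tested, and 0 of the 298 had an unadjusted p under 0.05, against 44 of all genes. Groups did not overlap for 16 of the 298, beside 8.03% of all genes.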

How the data were processed

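The authors deposited 1 table of values per gene and strain. The unit is named in neither the labels nor the file header and was taken to be FPKM (fragments scaled by gene length and library total): in each S. cerevisiae strain the low deposited FPKM values times the R64 gene length fell on whole multiples of 1 step for 93.1% to 96.4% of values (tolerance 0.05), which implies a total of 58.4 M (M for mega) in DBVPG6040, from 57.9 M (Y9) to 72.3 M (BC187) in the other single libraries, and 153 M in the joined YPS606. For N17, N44 and IFO1815 depth is unknown. The submitters' processing notes name cutadapt, TopHat, Cufflinks and the build R64 without versions or order. Reads of all strains may have been counted against 1 or several genomes, which is not given in the sources used here. Per the labels' protocols, cultures were grown at 30 °C for 24 h, then brought from an optical density of 0.1 to 0.5 before harvest.

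Differences were taken on log2(value + 1) as deposited, which understates the change of low genes, and again after subtraction of the median of the other 14 chromosomes. Of the 300 genes, 297 matched the R64 RefSeq annotation by systematic name, and YKL115C, YKR012C and YKL031W did not. Coordinates and sequences are those of R64. Python 3.11.15, pandas 2.3.3 and numpy 2.4.6 were used. Tests without DBVPG6040 used limma 3.58.1 in R 4.3.3 (lmFit, eBayes with a trend, two-sided, Benjamini-Hochberg adjustment, threshold 0.05) on genes with a mean of at least 1, and the script was tested on simulated data. Strains are the replicates, and no label gives a batch, so a batch could not be examined. The members and gene lists were chosen with earlier results of these data known, and the groups of complexes after the values were seen. Named genes were the 5 highest and 5 lowest differences per chromosome among genes with a mean of at least 10, members of the functional lists, the 5 highest values in DBVPG6040, and in the species test the 4 highest and 4 lowest differences past the threshold. Alternatives were a pseudocount of 0.1, other filters on low values, quantile normalisation, centring and leaving out each strain.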

Additional observations from a re-analysis of the deposited data

Results flagged for a closer look

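The 5 S. cerevisiae strains other than DBVPG6040 were examined for a single strain that stood apart by Dixon's criterion, in 28 sets of values. DBVPG6040 was not entered, since the chromosomes were chosen on its values. The single-gene sets were named genes, most of them picked by a difference that has these 5 strains as its base. The sets are therefore not free of that choice. A strain stood apart in 2 of the 28 sets, where chance alone would give about 1 in 20 independent and unselected sets, or 1.4. The chromosome I median relative to the other 14 chromosomes, on the log2 scale and against the mean of the 5 strains, was −0.12 in Y9 and 0.0094 to 0.055 in the rest. CLN3 was higher in YJM145 (167) than in the rest (116 to 126). Neither was examined further.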

How the results depend on the processing

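Scaling moved the DBVPG6040 values most. Centring on the other 14 chromosomes gave medians of 0.63 for chromosome I and 0.59 for chromosome XI, with 65 genes under and 44 over the reference, and quantile normalisation gave 0.61 and 0.56, with 68 under and 49 over. Leaving out each of the 5 other strains gave 0.74 to 0.85 for chromosome I, 0.69 to 0.76 for chromosome XI, and 32 to 43 genes under, 153 to 174 near and 86 to 112 over. In the species test the 25 calls on these chromosomes became 16 with a pseudocount of 0.1 and 7 with DBVPG6040 added. Leaving out each strain gave 0 to 76 calls there and 47 to 1185 over all genes, and in the comparison of wild with other strains 0 to 1 over all genes. The cause was not tested. Of 101 alternative values of main results 74 stayed within 1.5 times a count, or 1 SD between strains of a median, and 27 moved further. Of 250 for single genes 241 stayed within 1 SD between strains and 9 moved further. Separately, 8 of the 250 had the opposite sign, all in FRT2, MET1 or TMA19. No paired analysis was possible because only YPS606 has numbered libraries, which the authors joined. DBVPG6040 is 1 library, so its differences have no replicate error, and low genes are limited by depth (the lowest rested on 3 implied reads).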
